A study of Mus musculus with 3 samples.

Results

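The 31 genes described here mark or maintain pluripotent cells, and they were followed through the first days in which mouse embryonic fibroblasts are turned toward pluripotency. They were taken by symbol: Nanog, Esrrb, Sall4, Sall1, Lin28a, Lin28b, Tdgf1, Dppa2, Dppa3, Dppa4, Dppa5a, Zfp42, Tfcp2l1, Klf2, Klf5, Tbx3, Nr5a2, Utf1, Fgf4, Gdf3, Nr0b1, Tcl1, Fbxo15, Trim71, Dnmt3b, Dnmt3l, Tet1, Prdm14, L1td1, Tex10 and Mybl2. All 31 had a row among the 50507 genes of the count table. Together they held 2572 unique molecular counts, which is 0.0244% of all counts in 127 libraries, so most of what follows is given as counts summed over genes, per 100000 counts of the libraries, with exact 95% counting intervals.

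The study asked which chromatin and transcription regulators help or hinder early reprogramming. RNA was taken in bulk and sequenced by CEL-Seq2, a method that tags the 3′ end of each transcript with a library barcode and a molecular identifier. The 3 samples are sequenced pools, and each pool holds the libraries of 1 replicate. The cells were wild-type fibroblasts of the BL6 strain, reprogrammed at passage 2, and all groups, controls included, carried lentiviral tet-STEMCCA (Oct4, Sox2, Klf4 and c-Myc from a doxycycline-driven promoter) and rtTA. Reprogramming was started with a medium that held doxycycline at 2 ug/mL, chiron at 3 uM, Alk5i (a TGFb inhibitor) at 0.25 uM, ascorbic acid at 50 ug/mL and LIF. Its addition defines day 0, so the libraries of day 0 stand for transduced fibroblasts at the start of this culture and those of later days for cells grown in it. The time course, days 0 to 6, was not transfected and has 3 libraries a day. Screen cells received pooled siRNAs at 40 nM, with RNAiMAX as the carrier, before induction and were taken on day 6. Transfected cells stood 1 more day in the transfection mix before induction. The study does not say that the untransfected time course had this day. The screen has 98 libraries over 33 siRNAs, 3 libraries of a non-targeting siRNA (nt) and 5 without siRNA (Mock). The sample labels give the replicate only, so the condition of each library rests on its column name. The study describes the siRNA transfections as done in triplicate and its sequencing replicates as independent, and does not say whether these used separate fibroblast preparations. P-values measure the spread between these libraries.

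Library totals ran from 29656 to 235292 counts, with a median of 73279. Replicate 3 was sequenced more deeply (median 127079 counts) than replicates 1 (64227) and 2 (63122). The siRNA targets, summed over all siRNAs, had 369 counts in their own libraries where 391.2 were expected from the other transfected libraries, a ratio of 0.943 with an interval of 0.8495 to 1.045, so a lowering of the targets in sum was not detectable in these counts. Abundant targets held much of the expected sum (Hat1 96.18 and Set 71.77 counts). Others, such as Bard1 (1.265 expected) and Pou5f1 (0.9223), had too few counts to judge singly. RT-qPCR of Brca1, Bard1 and Wdr5 mRNA on day 3, also made for the study, was not used here, and the screen libraries are of day 6. The fibroblast origin was visible: 11 fibroblast markers, among them Col1a1, Col1a2, Prrx1 and Twist2, summed to 564.0 per 100000 on day 0 (506.0 to 643.9 between libraries) and 235.7 on day 6 (215.5 to 288.0). Markers of trophoblast, extraembryonic endoderm and the nervous system gave 0 calls by edgeR or DESeq2 over the days or in nt against day 6, with at most 1 gene of a list at an unadjusted p under 0.05. Only 3 of 5, 1 of 5 and 3 of 4 genes of these lists had enough counts to test, so the absence of calls says little. RNA in bulk cannot tell fewer cells of a type from less RNA per cell.

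Pluripotent cells keep their state through a circuit of transcription factors, in which Oct4 and Sox2 work with Nanog, Esrrb, Tfcp2l1, Klf2, Klf5 and Tbx3 to hold one another on. Around this circuit lie RNA-binding proteins such as Lin28a, L1td1 and Trim71, secreted and surface signals such as Fgf4, Gdf3 and Tdgf1, and enzymes that write or remove DNA methylation. Fibroblasts keep most of these genes silent, and during reprogramming loss of fibroblast identity and gain of epithelial features precede the late core of the circuit.

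The counts were spread unevenly over the 31 genes. L1td1, which encodes an RNA-binding protein derived from a LINE-1 element, had 471 counts. Tex10, a nuclear protein tied to ribosome maturation and to Sox2 function, had 457, and Klf5, a Krüppel-like factor that embryonic stem cells need, had 254. These 3 genes held 46.0% of the sum. L1td1 had a count in 107 of the 127 libraries (84.3%), Tex10 in 120 (94.5%) and Klf5 in 97 (76.4%), whereas Nanog, the homeobox factor of the circuit, had 44 counts in 32 libraries (25.2%). In all, 19 genes had 30 or more counts, and 12 had fewer. The sparse ones were Sall1 with 25 counts, Utf1 with 21, Gdf3 with 20, Lin28b with 18, Dppa2 with 13, Nr0b1 with 10, Lin28a with 9, Esrrb with 7, Zfp42 and Dppa4 with 3 each, and Tcl1 and Prdm14 with 2 each. The last 6 of these had under 10 counts and were not tested singly, which left 25 genes in the tests. Counts are of 3′ ends and were compared only for the same gene or the same group of genes between libraries. Of the 31 genes, 6 (Tdgf1, L1td1, Mybl2, Dppa4, Dppa5a and Gdf3) have a near-identical copy of their 3′ end elsewhere in the genome, so that counts of these are uncertain by any reads the authors' counting split between copies.

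The first question was whether these genes come on over 6 days. The summed level was highest at the end of the time course. On day 0 the 3 libraries had 10.04, 12.71 and 12.30 member counts per 100000, from 5, 6 and 16 counts. On day 6 they had 28.65, 49.92 and 29.01, from 19, 27 and 42 counts. Every day-6 library lay above every day-0 library, and the share of all genes that separate in this way was not counted. Pooled, the level was 11.89 on day 0 (interval 7.834 to 17.30) and 33.18 on day 6 (26.61 to 40.88), a ratio of 2.791 with an interval of 1.796 to 4.470. The ratio was 2.854, 3.928 and 2.358 within replicates 1, 2 and 3.

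Between these ends the pooled sum was 14.68 per 100000 on day 1, 16.04 on day 2, 13.28 on day 3, 17.14 on day 4 and 23.75 on day 5. Days 0 to 4 had overlapping counting intervals. The day-5 libraries had 15.50, 33.22 and 23.29, of which that of replicate 1 lay within the range of the libraries of days 0 to 2 (7.735 to 22.14). Days 4 to 6 together (24.03) exceeded days 0 to 2 together (14.27) by a ratio of 1.684 (1.322 to 2.160). The ratio of day 6 to day 0 was 2.635 without L1td1, 3.045 without Mybl2 and Tex10, which all dividing cells use, and 3.623 (1.954 to 7.229) without L1td1, Tex10 and Klf5, the 3 genes with the most counts, a choice made after the data were seen. The number of the 31 genes with any count was 9, 8, 11, 11, 17, 17 and 20 on days 0 to 6. Of all 16129 genes, 73.8% had a count on day 0, 79.9% on day 4 and 76.5% on day 6, from 227117, 338357 and 265205 counts in all. Libraries of 1 condition varied more than counting error alone gives (chi-square per degree of freedom 1.789 for the sum, where 1 is counting error), so the intervals are narrower than the spread between libraries.

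**Figure D1:**
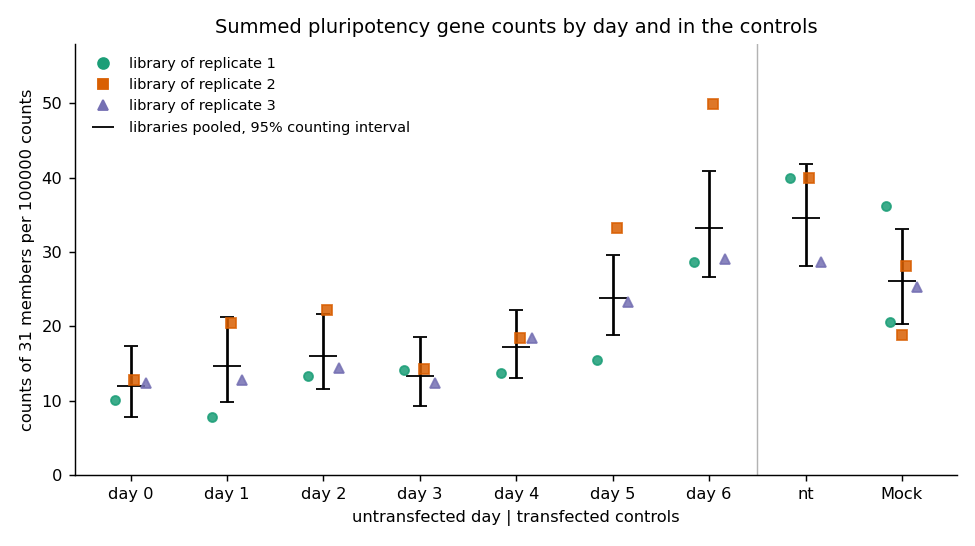
Summed counts of the 31 genes per 100000 library counts (y axis) on days 0 to 6 of the untransfected time course and in the transfected nt and Mock controls (x axis). Symbols are single libraries by replicate, and bars are pooled values with exact 95% counting intervals. All 3 libraries of day 6 (28.65 to 49.92) sit above all 3 of day 0 (10.04 to 12.71), and nt sits near day 6.

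Single genes were then tested by edgeR's quasi-likelihood test across all 16129 genes with 10 or more counts, with the replicate as a block and Benjamini-Hochberg adjustment. With day 6 set against day 0, 3.91% of all genes passed, and 0 of the 25 genes tested did. At an unadjusted p under 0.05 there were 2, Nr5a2 (log2 fold change 4.46 ± 1.57 SE, adjusted p = 0.0900 by edgeR) and L1td1 (2.28 ± 1.15, adjusted p = 0.414). DESeq2 also called 0 of the 25, with 0 at an unadjusted p under 0.05. At these depths the comparison has little to work with, since 23 of the 31 genes had 3 or fewer counts in both groups.

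Using all 7 days gave more counts per gene, and L1td1 and Nr5a2 rose with time. The contrast of day levels that gives the slope per day was passed by 5.07% of all genes, 2.30% in the upward direction, and by 2 of the 25 genes, both upward. L1td1 rose by 0.61 ± 0.17 log2 units per day (adjusted p = 0.00846 by edgeR) and Nr5a2 by 0.69 ± 0.22 (adjusted p = 0.0339). For 14 of the 25 genes, Sall4, Tdgf1, Fgf4 and Nanog among them, that contrast had no usable error. These were the 14 genes without any count on at least 1 day before day 3 and at least 1 day after it. L1td1 and Nr5a2 also had days without a count, but only up to day 3, and the sizes of their contrasts lean on the small prior count that edgeR adds. A fit with day as a number was added after the data were seen. It called 5.34% of all genes, 2.21% upward, and the same 2 of the 25: L1td1 at 0.70 ± 0.16 log2 units per day (adjusted p = 0.000980) and Nr5a2 at 0.85 ± 0.20 (adjusted p = 0.000970). Of the 24 genes with a count in the time course, 21 (87.5%) had a slope above 0, with a median of 0.146 per day, and of all 15736 genes with such a count 48.8% did, with a median of −0.006.

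Both calls lean on particular pools, and that of Nr5a2 on the tool. With day as a number, the call for L1td1 was lost without replicate 3 (0.55 ± 0.23, edgeR adjusted p = 0.262), and the call for Nr5a2 was lost without replicate 2 (0.85 ± 0.28, edgeR adjusted p = 0.0562) and without replicate 3 (0.76 ± 0.27, edgeR adjusted p = 0.118). With the contrast of day levels, L1td1 was also lost without replicate 2 (0.76 ± 0.25, edgeR adjusted p = 0.0703), Nr5a2 without any 1 of the replicates, and Nr5a2 without the block (edgeR adjusted p = 0.0569) and with no filter on low counts (edgeR adjusted p = 0.0709). By DESeq2 on that contrast L1td1 passed (adjusted p = 0.0236), whereas Nr5a2 had an unadjusted p of 0.0836 and was given no adjusted p.

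L1td1 lies on chr4:98726734-98738480, plus strand, of GRCm38. In the libraries of replicates 1, 2 and 3 it had 0, 1 and 0 counts on day 0, none on day 1, 0, 0 and 1 on day 2, none on day 3, and 0, 2 and 1 on day 4. It then had 1, 6 and 6 counts on day 5 and 0, 2 and 6 on day 6. The high libraries were those of replicates 2 and 3 on day 5 and of replicate 3 on day 6, while the day-6 library of replicate 1 had none and overlapped the early days. Over days 4 to 6 there were 24 counts and over days 0 to 2 there were 2, a ratio of 8.71 (2.16 to 76.1).

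Nr5a2, an orphan nuclear receptor that can take the place of Oct4 in factor cocktails, lies on chr1:136842571-136960448, minus strand. It had no count on day 0 or day 2, and 1 count each on days 1, 3 and 4, all in replicate 2. On day 5 its libraries had 1, 0 and 7 counts, and on day 6 they had 0, 7 and 3. The high library was that of replicate 3 on day 5 and that of replicate 2 on day 6, so the groups overlapped. The late days held 19 counts and the early days 1, a ratio of 13.8 (2.19 to 573). L1td1 and Nr5a2 were the 2 genes of the 31 whose interval for late against early days lay above 1, as did that of 5.48% of all 16129 genes.

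The sequences before these genes are shown because both were called, and a Krüppel-like factor, Klf4, was among the induced factors. The 250 bases before the transcription start that RefSeq gives (GRCm38.p6) were searched on both strands for GGGNGTGG, a short form of the Krüppel-like factor motif, and matches are in capitals. Tdgf1, described below, is set beside them.
L1td1, chr4:98726504-98726753, plus strand: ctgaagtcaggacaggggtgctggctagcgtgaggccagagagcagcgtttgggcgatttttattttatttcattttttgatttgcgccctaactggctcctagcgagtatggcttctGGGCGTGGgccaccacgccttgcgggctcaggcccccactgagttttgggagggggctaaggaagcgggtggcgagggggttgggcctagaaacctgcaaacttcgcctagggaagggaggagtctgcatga
Nr5a2, chr1:136953631-136953880, minus strand: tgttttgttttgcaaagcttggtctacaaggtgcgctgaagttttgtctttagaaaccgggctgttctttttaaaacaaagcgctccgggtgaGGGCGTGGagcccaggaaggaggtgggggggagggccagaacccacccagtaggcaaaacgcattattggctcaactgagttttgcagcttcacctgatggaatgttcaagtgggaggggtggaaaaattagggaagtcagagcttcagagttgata
Tdgf1, chr9:110946159-110946408, minus strand: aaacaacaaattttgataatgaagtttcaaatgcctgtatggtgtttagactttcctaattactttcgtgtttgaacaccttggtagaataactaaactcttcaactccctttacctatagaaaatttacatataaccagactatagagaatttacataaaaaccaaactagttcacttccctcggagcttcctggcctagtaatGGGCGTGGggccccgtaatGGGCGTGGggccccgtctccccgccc
L1td1 and the Nr5a2 window shown each hold 1 match and Tdgf1 holds 2. A second Nr5a2 start, with the window chr1:136960449-136960698, holds none. The motif stood in 13 of the 28 promoter windows of the 21 members in the table, which belong to 10 members, and in 15.9% of all 32851 promoter windows. ATTTGCAT, the octamer, stood in 1 member window (Zfp42) and 1.60% of windows, CATTGT, a Sox motif, in 3 member windows (of Lin28a and Nanog) and 10.7%, and CACGTG, an E-box, in 2 member windows (of Dnmt3l and Lin28b) and 6.02%. A match is a description of letters, and no binding was measured here.

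The other transcription factors of the circuit were sparse. As a group of 12, without Nr5a2, they had 5.284 counts per 100000 on day 0 and 7.164 on day 6, from 12 and 19 counts, a ratio of 1.356 (0.6249 to 3.063). On the late days together they had 6.409 beside 6.620 on the early days, a ratio of 0.9682 (0.6469 to 1.458). Both intervals included 1. With Nr5a2 the ratios were 2.07 (1.024 to 4.453) and 1.247 (0.8563 to 1.835). Klf5 made up much of this group and was present from the start. Its libraries had 1, 1 and 4 counts on day 0, 1, 5 and 3 on day 1, 7, 5 and 5 on day 2, and 0, 2 and 3 on day 3. They had 2, 2 and 7 on day 4, 1, 6 and 8 on day 5, and 5, 1 and 4 on day 6. Late and early libraries of Klf5 overlapped throughout, and its late to early ratio was 0.817 (0.493 to 1.36).

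Sall4, a zinc-finger factor used as an early colony marker, lies on chr2:168748332-168767943. It had 0, 1 and 1 counts on day 0, none in the 12 libraries of days 1 to 4, 1, 2 and 0 on day 5, and 1, 2 and 2 on day 6. Its slope with day as a number was 0.41 ± 0.21 log2 units per day (edgeR adjusted p = 0.382). Tbx3, a T-box factor, had 2 counts on day 0 and at most 3 on any later day. Klf2, a Krüppel-like factor close to Klf4, had 2 on day 0 and 1 or 0 on each later day. Tfcp2l1, a factor downstream of LIF, had 2 counts on days 1 and 6 and 1 or 0 on other days. Nanog had 2 counts in the whole time course, 1 on day 3 in replicate 1 and 1 on day 5 in replicate 3. Esrrb, the estrogen-related receptor, Zfp42 (Rex1), a marker of the naive state, and Prdm14, which represses differentiation signals, had no count in the 21 libraries, nor did Dppa2 and Dppa4. Sall1 had 1 count, on day 4, Nr0b1 (Dax1) 1 each on days 2 and 4, and Utf1, a chromatin-bound factor, 4 in all, from day 3 to day 5.

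The RNA-binding proteins were nearly absent until day 4, and most of their counts were L1td1. The 4 genes had 0.4403 counts per 100000 on day 0, 4.209 on day 5 and 4.902 on day 6. Trim71, a ubiquitin ligase and mRNA repressor, had no count before day 6 and 1 in each library of day 6. Lin28a, which blocks let-7 maturation, had its only 2 counts of the time course on day 6 in replicate 2, and Lin28b had 1 on day 3 and 1 on day 5. The slope of Trim71 with day as a number was 0.62 ± 0.23 (edgeR adjusted p = 0.102).

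The 4 Dppa genes, named for their expression in pluripotent cells, had no count in the 12 libraries of days 0 to 3. They had 1.478 counts per 100000 on day 4, 0.3007 on day 5 and 1.131 on day 6. Dppa3 (Stella), which protects DNA methylation in the egg and early embryo, had 0, 1 and 1 counts on day 4, 0, 1 and 0 on day 5, and 0, 0 and 2 on day 6. Dppa5a had 3 counts on day 4, all in replicate 3, and 1 on day 6. No single Dppa gene passed the test.

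The genes of signals had few counts before day 6. Fgf4, the growth factor that pushes pluripotent cells toward differentiation, had 1 count in replicate 3 on each of days 0, 1 and 4, and then 3, 3 and 2 on day 6. The day-6 libraries of Fgf4 lay above all 18 earlier libraries in counts, and the share of all genes that do so was not counted. Its slope with day as a number was 0.55 ± 0.22 (edgeR adjusted p = 0.136), and it was called without replicate 3 (1.34 ± 0.32, edgeR adjusted p = 0.00187). Tdgf1 (Cripto), the co-receptor of Nodal, lies on chr9:110939603-110946158 and had 7 counts in the time course, never more than 2 in a library. Gdf3, a Nodal-like ligand, had 2 counts on day 4, and Tcl1, a coactivator of Akt kinases, had 1 on day 6.

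Among genes of DNA methylation, Tet1, which oxidises methylated cytosine, was present early: its libraries had 1, 0 and 3 counts on day 0, none on day 1, 0, 4 and 2 on day 2, 0, 1 and 4 on day 3, 1, 0 and 0 on day 4, 2, 0 and 4 on day 5, and 0, 2 and 3 on day 6. Early and late libraries of Tet1 overlapped. Dnmt3b, a de novo methyltransferase, and Dnmt3l, its catalytically inactive partner, had no count before day 3 and 4 and 6 counts in all. Fbxo15, an early reporter gene of reprogramming, had 1 count on day 2, 1 on day 4, 0, 2 and 2 on day 5, and 1 on day 6. Tex10 had 7 counts on day 0 and 15 on day 6, with late and early libraries overlapping and a late to early ratio of 1.45 (0.862 to 2.51). Mybl2, a cell cycle transcription factor, had 2 and 9 counts on these days. Of the 31 genes, 17 had no count on days 0 to 2, and 12 of those 17 had one on days 4 to 6. This was near the background, since 72% of the 1803 genes without a count on days 0 to 2 had one on days 4 to 6, when the libraries held 936156 counts beside 679804. The rate was higher late than early for 20 of the 31 genes and lower for 6, beside 46.2% and 50.7% of all 16129 genes.

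**Figure D2:**
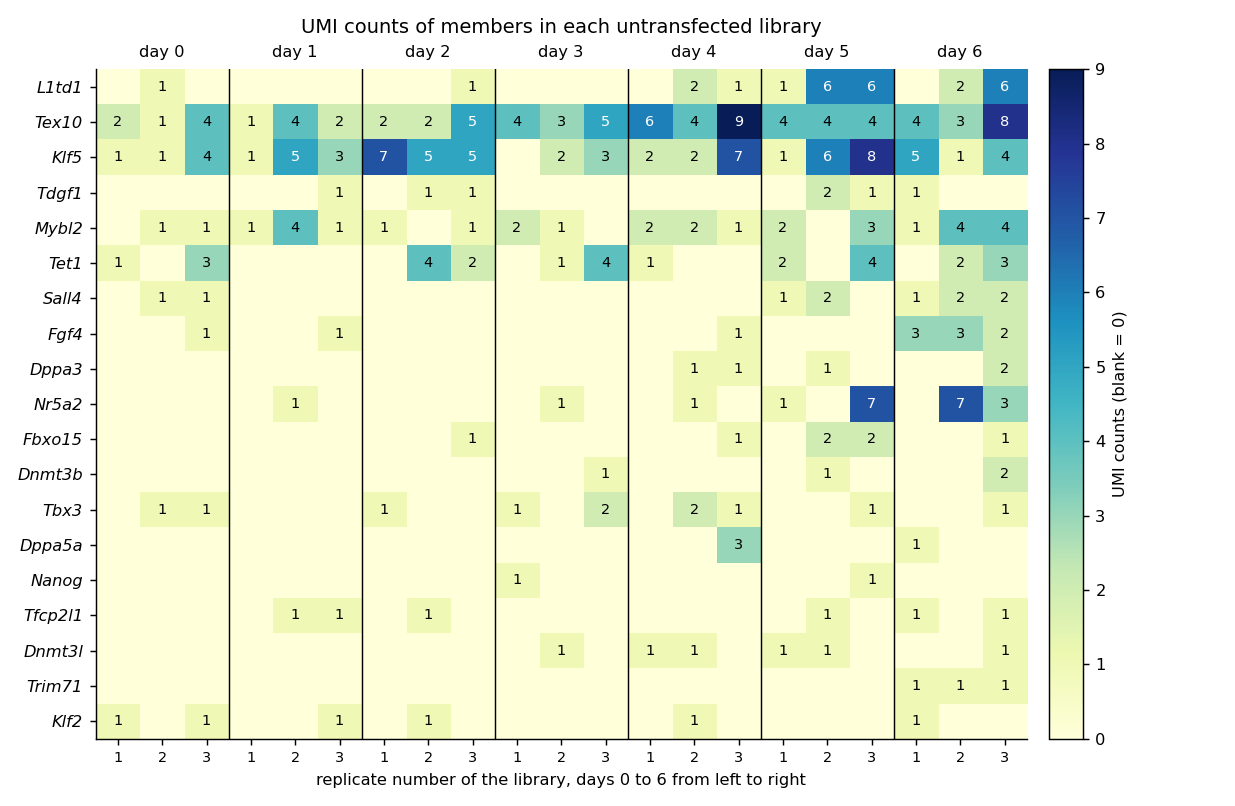
Molecular counts of the 19 genes with 30 or more counts over all libraries (rows) in each of the 21 untransfected libraries (columns, replicates 1 to 3 within days 0 to 6), with the count written in each cell and blank cells at 0. L1td1 and Nr5a2 have most of their counts on days 5 and 6, though neither has one in the day-6 library of replicate 1, Fgf4 and Trim71 have counts in all 3 libraries of day 6, and Tex10, Klf5 and Tet1 have counts from day 0.

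**Figure D3:**
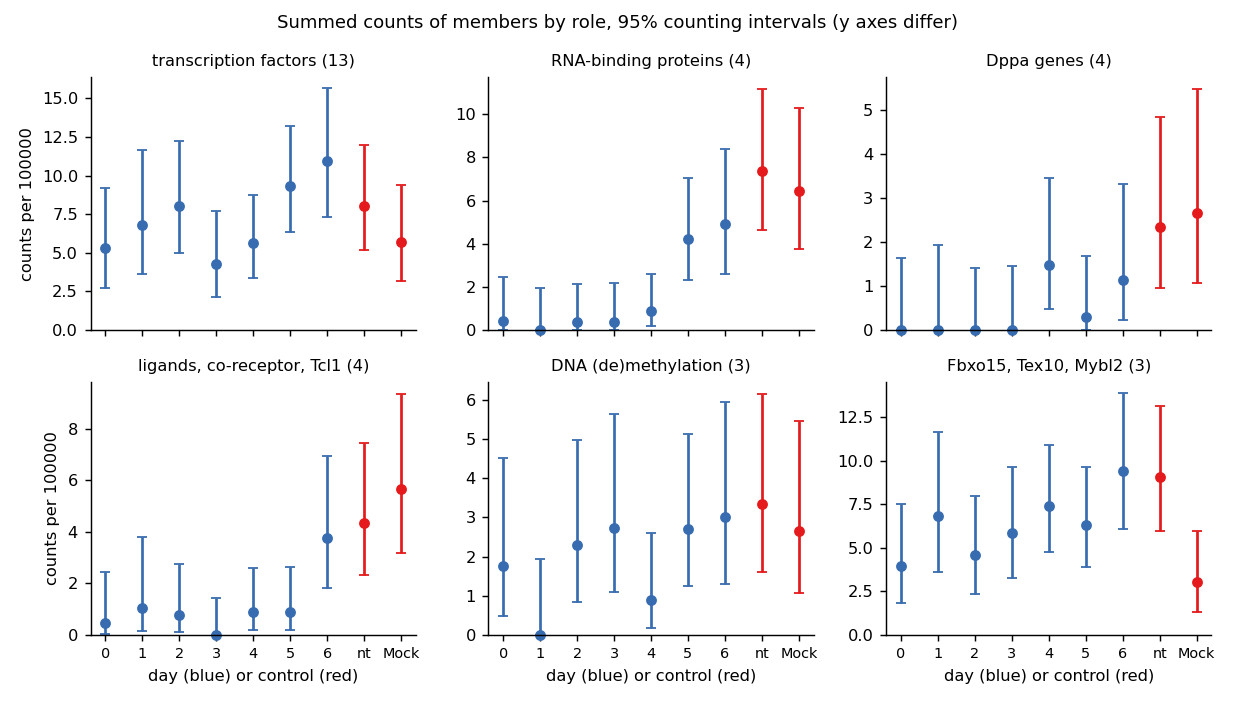
Summed counts per 100000 library counts (y axes, which differ between panels) of the 31 genes split by role, on days 0 to 6 (blue) and in the nt and Mock controls (red), with exact 95% counting intervals. RNA-binding genes go from 0.4403 on day 0 to 4.902 on day 6, and Dppa genes have no count on days 0 to 3.

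Markers of other cell states moved over the same days. Of 11 fibroblast markers, 5 fell with time (Col1a1, Col1a2, Prrx1, Twist2 and Zeb1), and of 9 epithelial markers, 3 rose (Cdh1, Epcam and Krt8) by edgeR on the contrast of day levels. Krt8 did not pass by DESeq2 (adjusted p = 0.0749). Epithelial markers summed to 2.202 per 100000 on day 0 (2.008 to 2.306 between libraries) and 18.10 on day 6 (7.539 to 25.89). Their part in the rise of L1td1 and Nr5a2 was not tested. Of 25 further genes linked to pluripotency, 19 could be tested and 2 rose on the same contrast: Bex1, an adaptor protein, by 0.66 ± 0.09 log2 units per day (edgeR adjusted p = 3.69e-10), and Rif1, a telomere and replication-timing protein, by 0.18 ± 0.05 (edgeR adjusted p = 0.00693). Bex1 had 1, 6, 12, 5, 26, 30 and 47 counts on days 0 to 6. With day as a number the same 8 fibroblast and epithelial genes passed, as did Bex1 and Rif1, and Tdh, a threonine dehydrogenase of mouse embryonic stem cells, joined them. Of the 4 genes whose factors the cassette carries (Pou5f1, Sox2, Klf4 and Myc, with 40, 60, 161 and 75 counts over all libraries) 0 passed by edgeR or DESeq2, with 0 at an unadjusted p under 0.05. Counts were of 3′ ends matched to annotated transcripts, and whether they include RNA from the lentiviral cassette was not tested. Of 7 Wnt targets tested 0 passed by either tool, with 1 at an unadjusted p under 0.05 by edgeR and 0 by DESeq2, and of 6 LIF pathway genes tested 1, Jak1, fell by edgeR on the contrast of day levels but not with day as a number (edgeR adjusted p = 0.0738).

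The second question was how the transfected controls compared with untransfected cells of day 6. The siRNA, the carrier and the added day before induction cannot be told apart by setting nt against day 6. In nt, cells with a non-targeting siRNA at the same day, the summed level was close to that of untransfected day 6. The nt libraries had 39.95, 39.93 and 28.64 counts per 100000 (30, 32 and 41 counts), which overlapped the day-6 libraries. Pooled, nt had 34.52 (28.17 to 41.86), a ratio to day 6 of 1.040 with an interval of 0.7751 to 1.399. The 5 Mock libraries had 36.21, 20.55, 18.84, 28.07 and 25.27, which also overlapped both groups, and pooled 26.13 (20.33 to 33.07), a ratio to nt of 0.7570 (0.5498 to 1.037). Within each replicate, every Mock library lay below that of nt, whereas day 6 lay on both sides of it. By the pooled intervals, a difference of the sum between nt and either group was not detectable at this depth. Fibroblast markers stood lower in nt: they summed to 101.2 per 100000 in nt (98.49 to 106.1 between libraries) and 235.7 on day 6. Of the 11, Col1a1 (−1.36 ± 0.28) and Col1a2 (−1.21 ± 0.22) were called lower in nt by both edgeR and DESeq2, as was Mcm2 (−1.56 ± 0.46), a replication gene. Their part in the values of the pluripotency genes was not tested.

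Counts of single genes in the transfected controls were set beside the time course. L1td1 had 3, 9 and 9 counts in nt and 4, 2, 2, 3 and 5 in Mock, so that every transfected control held some, unlike day 6. Tdgf1 had 3, 1 and 3 counts in nt and 3, 1, 2, 3 and 2 in Mock, beside 1, 0 and 0 on day 6. The ratio of L1td1 to day 6 was 2.333 (0.9927 to 6.091) in nt and 2.009 (0.8111 to 5.421) in Mock, and both intervals included 1. Over all 106 transfected libraries, L1td1 stood at 2.00 times (1.33 to 3.15) and Tdgf1 at 4.07 times (1.56 to 15.1) its level of days 4 to 6, whereas Klf5 stood at 0.542 times (0.377 to 0.798) and Nr5a2 at 0.335 times (0.197 to 0.595). The sum over all transfected libraries was 0.7692 times that of day 6 (0.6215 to 0.9630). These ratios set screen libraries, most of them with an siRNA, against days, and the intervals cover counting error only.

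By edgeR, 3.98% of all genes passed for nt against day 6, and 0 of the 25 genes did. At an unadjusted p under 0.05 there were 2, L1td1 (1.46 ± 0.60, adjusted p = 0.197) and Tdgf1 (2.50 ± 1.18, adjusted p = 0.337), both higher in nt, and DESeq2 called 0. With nt and Mock joined as the transfected group, a choice made after the data were seen, Tdgf1 passed (3.01 ± 1.00, edgeR adjusted p = 0.0470). For Mock against nt, 0.167% of all genes passed and 0 of the 25 did. The one with an unadjusted p under 0.05 was Tex10, at −2.24 ± 0.78 (edgeR adjusted p = 0.434), with 4, 4 and 11 counts in nt and 0, 0, 2, 0 and 1 in Mock. DESeq2 called 0 there, with 1 at an unadjusted p under 0.05.

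The third question was how the level of these genes on day 6 depended on the siRNA. Most siRNAs lay below nt. The pooled level ran from 13.50 per 100000 in libraries labelled siPrmt7 to 50.83 in siEny2, with a median of 22.31 over 33 siRNAs beside 34.52 in nt, and 27 of the 33 lay below nt and 6 above. The counting interval of the ratio to nt lay below 1 for 22 siRNAs and above 1 for 2. Measured against nt and Mock together these numbers were 16 and 4, and 25 of 33 siRNAs lay below Mock alone. All comparisons with nt share its 3 libraries.

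At the low end stood siPrmt7 (ratio to nt 0.391, 0.253 to 0.589), siPrmt5 (0.4067, 0.2702 to 0.5996), siNcor1 (0.412, 0.275 to 0.605), siPou5f1 (0.417, 0.269 to 0.628) and siWhsc1l1 (0.429). Prmt5 and Prmt7 are arginine methyltransferases, Ncor1 is a nuclear receptor corepressor, and Pou5f1 encodes Oct4. The siPrmt7 libraries had 13.75, 9.320 and 15.37 counts per 100000, those of siNcor1 13.38, 10.32 and 16.31, and those of siPou5f1 12.87, 27.47 and 9.325. Each of these 9 libraries lay below each nt library. The 5 lowest siRNAs had overlapping intervals, so their order is not resolved.

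At the high end stood siEny2 (1.473, 1.140 to 1.909), siPrkdc (1.439, 1.096 to 1.892), siBptf (1.334, 0.962 to 1.84) and siTdrd7 (1.196). Eny2 is a subunit of the SAGA and mRNA export complexes, Prkdc the DNA-dependent protein kinase, and Bptf the largest subunit of the NURF remodeler. The siEny2 libraries had 45.87, 57.21 and 50.01 counts per 100000, those of siPrkdc 76.97, 41.95 and 43.28, and those of siBptf 74.68, 38.81 and 37.55. All libraries of siEny2 and siPrkdc lay above all of nt, whereas siBptf overlapped nt and owed its height to replicate 1. In all, 17 of the 33 siRNAs had every library below every nt library and 2 had every library above. Without L1td1, Mybl2 and Tex10 these numbers were 9 and 1, and siPou5f1 and siPrkdc were no longer among them. By the same rule, over all 16129 genes, 3.53% of gene-by-siRNA pairs lay wholly below nt and 3.71% wholly above, and over the 522 genes with at least the 2572 counts of the sum these shares were 11.4% and 8.80%. Only 3 siRNAs lay below every Mock library.

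**Figure D4:**
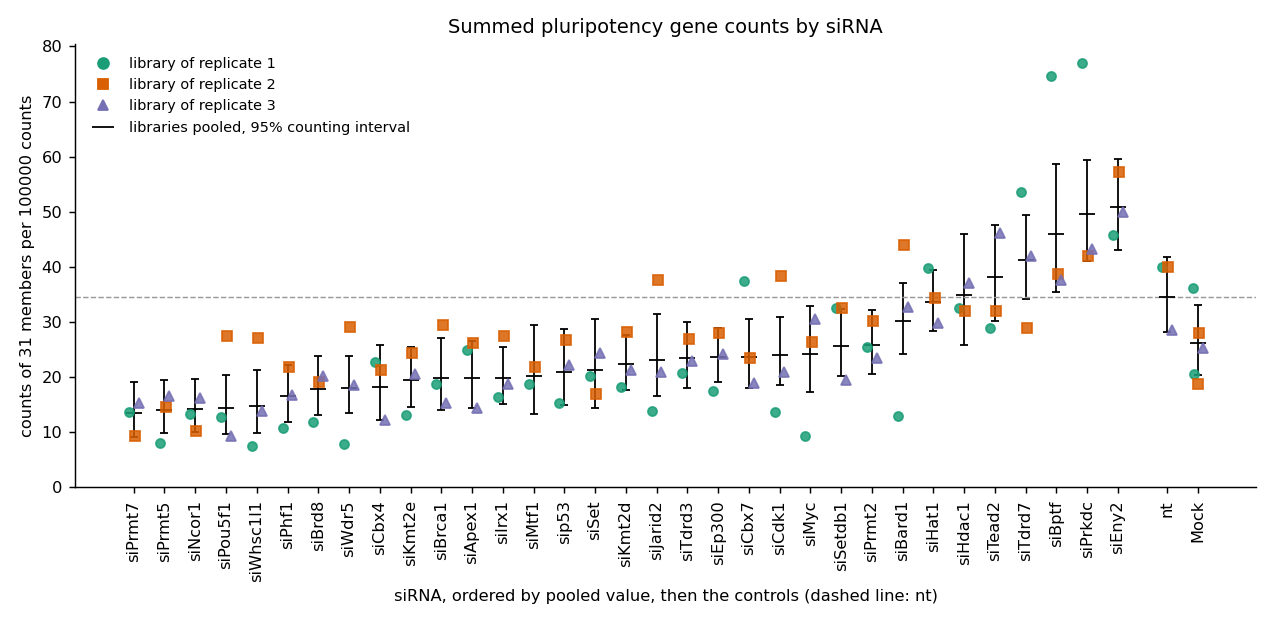
Summed counts of the 31 genes per 100000 library counts (y axis) for 33 siRNAs in order of the pooled value, then nt and Mock (x axis). Symbols are libraries by replicate, bars are pooled values with exact 95% counting intervals, and the dashed line is nt (34.52). The pooled values run from 13.50 (siPrmt7) to 50.83 (siEny2), and neighbours overlap.

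Fibroblast markers did not run in one direction along this order. They summed to 101.2 per 100000 in nt and 122.3 in Mock. They were 61.24 in siPou5f1 and 81.46 in siNcor1 but 155.9 in siPrmt7, all 3 low for the pluripotency genes, and 142.9 in siEny2 and 135.7 in siPrkdc, both high for them. Epithelial markers summed to 11.39 in nt, to 20.27 in siEny2, 22.55 in siPrkdc and 22.74 in siTdrd7, and to 5.224 in siPrmt7, 5.764 in siNcor1 and 9.279 in siPou5f1, whose libraries (5.086 to 15.02) spanned those of nt. Their part in the sums was not tested.

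For single genes, each siRNA was tested against nt. Over the 33 siRNAs against nt, 0.375% of gene-by-siRNA pairs passed across all genes, and 1 of the 825 pairs of the 25 genes did: L1td1 was lower in siWdr5. In siWdr5 alone 2.18% of all genes were called lower. L1td1 had 0, 2 and 2 counts in siWdr5 and 3, 9 and 9 in nt, so the 2 groups did not overlap in counts. It stood at 1.395 per 100000 in siWdr5 and 7.038 in nt, a ratio of 0.198 (0.0495 to 0.587). The log2 fold change was −2.28 ± 0.70 with an adjusted p of 0.0307 by edgeR. This call passed narrowly, since the adjusted p was 0.140, 0.186 and 0.207 by edgeR without replicates 1, 2 and 3, 0.0763 without the block and 0.0714 by DESeq2. Against nt and Mock together it was 0.0139. Under RLE scaling, which moved the median of all genes in siWdr5 by 0.102 log2 units, it was 0.0580, and 499 genes were called higher and 220 lower where TMM gave 350 and 352.

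Wdr5 is the core subunit that MLL-type H3K4 methyltransferase complexes share. The siWdr5 libraries had a summed level of 7.858, 29.08 and 18.55 per 100000, which overlapped nt, and pooled 18.13, a ratio of 0.525 (0.369 to 0.740). Each of them lay below the nt library of its own replicate. Without replicate 1 the ratio was 0.696 (0.469 to 1.02), and its interval included 1. Fibroblast markers summed to 378.0 per 100000 in siWdr5 (355.8 to 390.7) and 6 of 11 were called higher there (Col1a1, Col1a2, Col3a1, Thy1, Prrx1 and Twist2), while Bex1 was called lower (−1.88 ± 0.49, edgeR adjusted p = 0.00550). Epithelial markers summed to 3.836 per 100000 (2.245 to 5.057 between libraries) beside 11.39 in nt (11.18 to 11.98). Of these, Epcam (edgeR adjusted p = 0.247) and Krt8 (0.294) were lower at an unadjusted p under 0.05. Cdh1 went the other way, with 7 counts in siWdr5 and 4 in nt (0.72 ± 0.92, edgeR adjusted p = 0.769). The part of all these markers in the lower L1td1 was not tested. Wdr5 itself had 7 counts in these libraries where 7.691 were expected (ratio 0.910, 0.366 to 1.88), and Pou5f1 had 0 in siPou5f1 where 0.9223 were expected.

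Since both siRNAs bear on the results above, the sense strands listed for them in the study's siRNA table are given, with the 19 bases that match the transcript in capitals and the overhang in lower case. The antisense strand, not shown, is the one that pairs with the transcript. The study pooled 3 per target, and the table used here holds 2 for each.
Wdr5, first: CCAGUUAAGCCAAACUAUGtt
Wdr5, second: GCCGUUCAUUUCAACCGUGtt
Pou5f1, first: GGAGCUAGAACAGUUUGCCtt
Pou5f1, second: GGAGUCCCAGGACAUGAAAtt
On GRCm38 with GENCODE vM21, the first Wdr5 core lies at chr2:27519355-27519373 in exon 3 and the second spans the junction of exons 7 and 8 (chr2:27520909-27525121), both in coding sequence. The first Pou5f1 core lies at chr17:35509129-35509147 in exon 2 and the second spans exons 1 and 2 (chr17:35506480-35509117), again in coding sequence.

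L1td1, Tdgf1 and Sall4 differed among siRNAs. A test for any difference among the 33 siRNAs and nt was passed by 9.91% of all genes and by these 3 of the 25: L1td1 (edgeR adjusted p = 3.31e-11), Tdgf1 (0.0202) and Sall4 (0.0379). L1td1 ran from 1.04 per 100000 in siBrca1 (2 counts) through a median of 4.232 to 14.20 in siPrkdc, beside 7.038 in nt, and 25 of 33 siRNAs lay below nt. The siPrkdc libraries had 12, 7 and 15 counts, those of siBptf 6, 7 and 4, those of siTdrd7 8, 7 and 19, and those of siEny2 6, 8 and 15, so that every library of these 4 siRNAs held at least 4. At the other end, siBrca1 had 1, 1 and 0, siPou5f1 2, 1 and 1 and siBard1 2, 3 and 2. In siNcor1, at 4.611 per 100000 and so near the median, the libraries had 1, 0 and 11, nearly all in replicate 3.

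Tdgf1 had no count in siMtf1, sip53, siPou5f1 or siPrmt7, and its highest level was in siTdrd7, with 17 counts (5.946 per 100000) of which 14 came from replicate 3. Sall4 had no count in siIrx1, sip53, siPrmt5 or siTdrd3, and its highest level was in siEny2, with 2, 5 and 9 counts (5.316 per 100000). Neither call held in every setting. Tdgf1 was lost without replicate 1 (edgeR adjusted p = 0.0965), without replicate 2 (0.0965) and without replicate 3 (1.00). Sall4 was lost without replicate 1 (edgeR adjusted p = 0.978), without replicate 3 (1.00) and without the block (0.159).

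**Figure D5:**
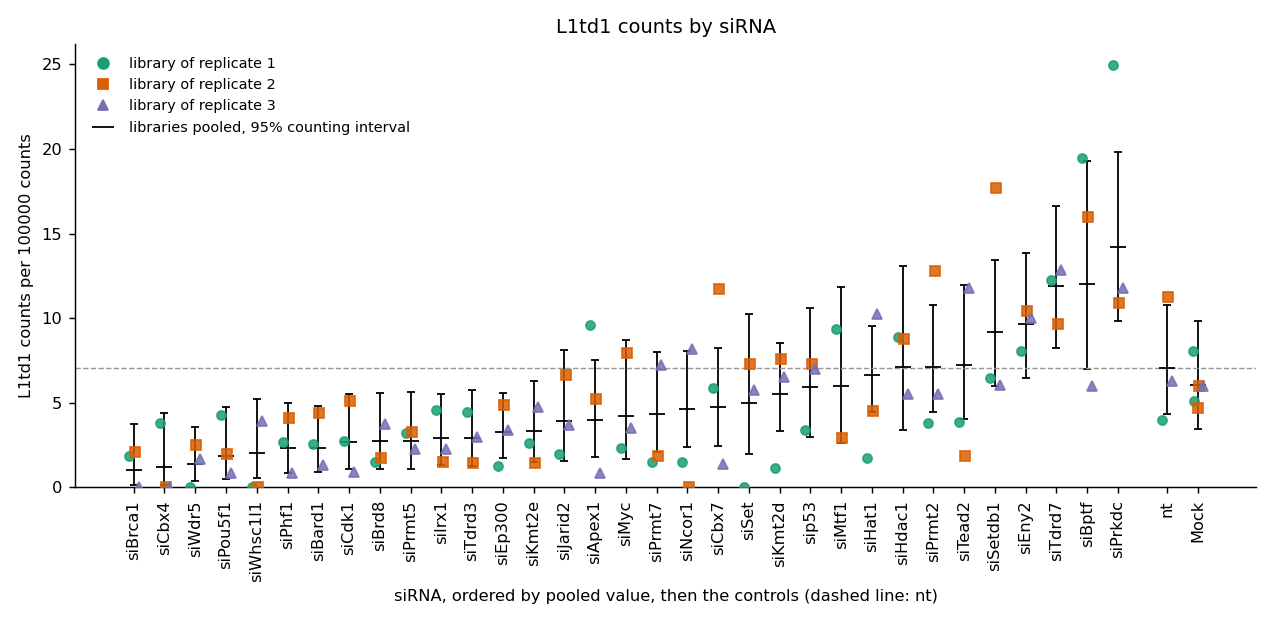
L1td1 counts per 100000 library counts (y axis) for 33 siRNAs in order of the pooled value, then nt and Mock (x axis). Symbols are libraries by replicate, bars are pooled values with exact 95% counting intervals, and the dashed line is nt (7.038). Values run from 1.04 in siBrca1 to 14.20 in siPrkdc.

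Brca1 and Bard1 encode partners in one DNA repair ubiquitin ligase, and their siRNAs stood at 1.04 and 2.345 L1td1 counts per 100000, both under the median. In siBrca1 the sum was 18.76, 29.42 and 15.32 per 100000, pooled 19.77, a ratio to nt of 0.573 (0.384 to 0.838), or 0.6814 (0.4472 to 1.02) without L1td1. In siBard1 it was 12.94, 43.97 and 32.68, pooled 30.15, a ratio of 0.874 (0.651 to 1.17). The libraries of the 2 siRNAs and these 2 intervals overlapped. The ratio of L1td1 in siBard1 to nt was 0.333 (0.120 to 0.814). Fibroblast markers were higher in both than the 101.2 per 100000 of nt, at 226.8 in siBrca1 (191.2 to 249.6 between libraries) and 228.8 in siBard1 (183.2 to 269.1). By both edgeR and DESeq2, Col1a1 and Col1a2 were called higher in siBrca1, and Col1a1, Col1a2, Prrx1 and Thy1 in siBard1. Their part in the sums and in L1td1 was not tested. Without L1td1, Mybl2 and Tex10, the other genes in siBard1 summed to 22.78 per 100000 (68 counts) beside 19.10 in nt (57 counts), a ratio of 1.193 (0.826 to 1.73). The siBard1 libraries overlapped nt and spread widely, with replicate 1 low. The difference between siBrca1 and siBard1 was not tested, and no single gene of the 25 was called in either by edgeR (L1td1 adjusted p = 0.139 in siBrca1 and 0.247 in siBard1).

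The order of siRNAs was not that of L1td1 alone. Without L1td1, 26 of 33 siRNAs lay below nt, 19 intervals lay below 1 and 1 above, and the ends of the order were again siPrmt7 (9.142 per 100000) and siEny2 (41.20). Without Mybl2 and Tex10, 19 intervals lay below 1 and 2 above, and the ends changed to siPou5f1 (8.815) and siPrkdc (43.42). All 31 genes had a count in the 106 transfected libraries (8682129 counts in all) and 26 in the 21 of the time course (1871923). Of the 25 genes tested, 24 had one in the time course, beside 97.6% of all genes tested. Nanog had 42 of its 44 counts there, at 4.53 times its level of days 4 to 6, with an interval of 0.770 to 183 that included 1.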

How the data were processed

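The authors mapped the CEL-Seq2 reads to mm10 with Bowtie2, collapsed molecular identifiers and matched reads to GENCODE transcripts with the CEL-Seq2 pipeline, and the deposited count table holds these unnormalized counts per gene symbol for 129 libraries. The authors also deposited a table of batch-regressed log2 CPM after removing libraries of low quality, which was used here only to tell the 127 libraries they kept. Mock columns share names within a replicate, and for replicate 3 the Mock library counted as kept is the one whose counts correlate with the log2 values (r = 0.9229 against 0.0173). The 31 genes and all gene lists were chosen with earlier results of these data known.

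Genes with 10 or more counts (16129) were tested with edgeR 4.0.16 in R 4.3.3, using the quasi-likelihood F test, TMM factors from genes that pass filterByExpr (0.819 to 1.28), all counts as library size, a term per condition and the replicate as a block, with 83 residual degrees of freedom and a negative binomial dispersion of 0.0123. P-values were adjusted by Benjamini-Hochberg over all genes, with a threshold of 0.05, and standard errors were derived from the F statistic. DESeq2 1.42.0 was the second tool and used a local dispersion trend. The tests were tried on simulated counts with known changes. Intervals are exact binomial or Poisson intervals (scipy 1.17.1) at 95% and, like the limit of 3 counts that a count of 0 allows, cover counting error only. Genes given with each library of the time course are those with 30 or more counts or a call in any comparison. The replicate number marks a shared pool: the median correlation of deviations from the condition mean over 1184 genes was 0.1916 between libraries of the same number and −0.1332 otherwise. The 131 pairs of libraries of 1 condition all differed by more than sampling noise (chi-square per gene 1.30 or more).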

Additional observations from a re-analysis of the deposited data

Results flagged for a closer look

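In the 20 groups of Mock values tested, 5 values stood apart from the other 4 by Dixon's criterion for 5 samples, each from 1 or 2 counts. Not all of the genes were tested in this way. The share of about 1 in 20 groups that chance sets apart holds for continuous values and not here, since a gene with a count in only 1 of the 5 Mock libraries, as for 4 of the 5 values, always stands apart. Klf2 had 1 count in the first Mock library of replicate 1 (2.012 per 100000 counts) and none in the others, and Klf5 had 2 there (4.023 per 100000) and none in the others. Trim71 had 1 count in the Mock library of replicate 3 (1.204 per 100000), and Dnmt3b had 1 in the second Mock library of replicate 2 (2.005 per 100000). Tex10 had 2 counts in the first Mock library of replicate 2 (4.711 per 100000) where the others had 1 or none.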

How the results depend on the processing

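Of 55 alternative ratios of the summed level (other gene subsets, scalings, controls or left-out replicates), 51 stayed on the same side of 1, among them day 6 against day 0 without L1td1, Tex10 and Klf5 (3.623), an alternative chosen after the data were seen. The exceptions were nt against day 6 without L1td1 (0.911) and without replicate 1 (0.9423), and siBard1 against nt without L1td1 (1.012) and without replicate 1 (1.106). Of 33 alternatives to a reported count of single genes that was above 0, 12 stayed within 1.5 times it. The other 28 were alternatives to a reported count of 0, of which 27 were again 0, which says little about stability. The slope per day was called for 2 genes as reported, for 1 without the replicate block, with filterByExpr, with no filter on low counts or by DESeq2 (which gave Nr5a2 no adjusted p), and for 0 to 1 with a replicate left out. With day as a number, an alternative chosen after the data were seen, it was called for 2 with and without the block, for 2 without replicate 1, for 1 without replicate 2 (L1td1) and for 1 without replicate 3 (Fgf4). For nt against day 6, 0 became 1 with nt and Mock together, also chosen after the data were seen. For single siRNAs, 1 call became 0 without the replicate block, under RLE, with no filter, by DESeq2 and with any replicate left out (0 to 0), and 2 with filterByExpr. For any difference among siRNAs, 3 calls became 1 with filterByExpr or no filter and 1 to 2 with a replicate left out. filterByExpr keeps 3013 genes and only L1td1 of the 31, so its counts rest on that gene. Without the block, calls over all genes were fewer: 559 for the slope where 818 were reported, 275 for nt against day 6 where 642 were, 677 siRNA pairs where 1995 were, and 863 for any siRNA where 1598 were. Under RLE scaling the slope gave 281 genes higher and 588 lower where TMM gave 371 and 447, and nt against day 6 gave 257 and 374 where TMM gave 381 and 261. Depth limits all single-gene results, since 12 of the 31 genes had under 30 counts in all, and the absence of a call for them is not evidence of an unchanged level.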

Other observations

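Further genes linked to pluripotency moved in the screen. Spp1, a secreted matrix protein, was called lower on day 6 than on day 0, and lower in siPou5f1 and in siNcor1 than in nt, by both edgeR and DESeq2. Over days 0 to 6 it had 331, 26, 73, 247, 104, 228 and 195 counts, which do not run in 1 direction. Its slope was 0.068 by the contrast of day levels (edgeR adjusted p = 0.279) and −0.074 with day as a number (edgeR adjusted p = 0.147). It was higher in nt than on day 6 by edgeR (adjusted p = 0.0218) but not by DESeq2 (0.167). Etv5, an ETS factor with 1 count in nt and 14 on day 6, was called lower in nt by edgeR (adjusted p = 0.0468), while DESeq2 gave it no adjusted p. Jak1, the kinase of the LIF receptor complex, was called lower in nt than on day 6 and higher in siWdr5, siBrca1 and siBard1, and Il6st (gp130), the shared LIF receptor subunit, was called higher in siWdr5, each by both tools.

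Other cell states differed between the ends of the time course. Of 6 genes of dividing cells, Mcm2 was higher on day 6 by both tools and Ccnb1 by edgeR (adjusted p = 0.0417) but not by DESeq2 (0.0856), and the list went from 70.01 to 115.4 counts per 100000. Lyz2, a macrophage gene, was lower by edgeR (adjusted p = 0.0128) but not by DESeq2 (0.340), with 31 counts on day 0 and 10 on day 6. These were nearly all of the 33 and 12 counts of its list, whose Ptprc and C1qb each had 0 and 1. Tek, an endothelial receptor, was called upward by edgeR on the contrast of day levels (adjusted p = 0.0426) but not with day as a number (edgeR adjusted p = 0.0684).

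The 2 libraries that the authors removed held few counts of the 31 genes. The third siMtf1 library had 7981 counts, of which 2 were of Tfcp2l1 (25.06 per 100000, interval 3.035 to 90.52). A Mock library of replicate 3 had 6403 counts, with 1 each of Sall4, Fbxo15 and L1td1 (46.85 per 100000, interval 9.662 to 136.9).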
